A study of Mus musculus with 2 samples.

Results

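The muscle LIM-domain proteins were followed on 16 array probes, out of 41174 gene probes under 27702 gene names in all. They are every probe that the scanner files name Fhl1, Fhl2, Fhl3, Fhl4, Fhl5, Csrp1, Csrp2, Csrp3, Crip1 or Crip2. The family was chosen from ratios measured on these same arrays, in which Fhl2 had differed between the regions, so its values are a description. All 10 genes had at least 1 probe, and each probe was read by itself because the probes of Fhl2 disagreed. RNA of the aortic arch, a region prone to atherosclerosis (the root, the arch itself and 2 mm of adjoining thoracic aorta), was compared with RNA of the central thoracic aorta, a resistant region (the next 6 mm). Both came from wild-type C57Bl/6 mice aged 16 weeks, an inbred strain, after detergent perfusion that was meant to strip the endothelium. The RNA of a region was pooled over 6 mice, 3 of each sex, so differences between single animals cannot be seen. These pools were hybridised together on 2 two-colour Agilent arrays with swapped dyes: on array 1 the arch carried Cy5, on array 2 Cy3.

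LIM domains are zinc-binding protein modules that hold other proteins together. The FHL proteins consist of little else and serve as scaffolds both at actin filaments and in the nucleus, where Fhl2 binds serum response factor (SRF), the factor that drives many contractile genes. The CSRP proteins cross-link and stabilise actin structures in muscle, with Csrp1 and Csrp2 typical of smooth muscle and Csrp3, the muscle LIM protein, typical of heart and skeletal muscle. The CRIP proteins are relatives, Crip1 first known from intestine and Crip2 from heart and vessel wall. SRF binds the CArG box, and several LIM genes are among its known targets.

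To show where such boxes lie, the RefSeq promoter windows of the members (assembly GRCm38.p6, 250 bases before to 50 after an annotated start) were searched for the CArG box, which is CC, then 6 bases that are each A or T, then GG. The pattern reads the same on both strands. Of the 10 members 9 had windows, 15 in all, and 3 windows of 2 genes held a box: both windows of Fhl2 and 1 of 2 windows of Fhl1. Over all genes 1.63% of 32851 windows held one. The core of the MCAT motif, CATTCC on either strand, was in 0 of the 15 windows and in 14.7% of all windows. The windows with a box are printed because they include both annotated starts of Fhl2, the member that differed most between the regions. Capitals mark the box.
Fhl2, upstream start, chr1:43196712-43197011, minus strand: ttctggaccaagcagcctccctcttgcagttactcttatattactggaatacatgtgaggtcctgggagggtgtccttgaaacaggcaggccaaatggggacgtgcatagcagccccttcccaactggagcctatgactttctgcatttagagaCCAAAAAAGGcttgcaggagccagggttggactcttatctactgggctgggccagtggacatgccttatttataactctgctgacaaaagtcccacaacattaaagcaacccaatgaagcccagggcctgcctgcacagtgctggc
Fhl2, downstream start, chr1:43163912-43164211, minus strand: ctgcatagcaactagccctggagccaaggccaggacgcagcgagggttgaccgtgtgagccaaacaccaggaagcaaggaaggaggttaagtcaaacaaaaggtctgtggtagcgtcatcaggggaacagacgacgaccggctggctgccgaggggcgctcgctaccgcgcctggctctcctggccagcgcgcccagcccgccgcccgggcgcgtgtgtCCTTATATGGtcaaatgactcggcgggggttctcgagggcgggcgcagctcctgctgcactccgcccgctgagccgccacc
Fhl1, chrX:56779433-56779732, plus strand: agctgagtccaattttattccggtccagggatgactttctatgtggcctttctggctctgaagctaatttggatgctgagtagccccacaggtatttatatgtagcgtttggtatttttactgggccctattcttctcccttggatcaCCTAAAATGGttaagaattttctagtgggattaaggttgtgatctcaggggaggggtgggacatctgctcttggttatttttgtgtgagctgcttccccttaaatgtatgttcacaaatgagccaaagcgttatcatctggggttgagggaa
The first base of the box lay 96 bases before the upstream start of Fhl2, 31 bases before its downstream start and 102 bases before the start of Fhl1. A match is a description of letters only. The other windows held no box, which says nothing of SRF at those genes.

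Between 71.3% and 81.5% of gene spots per dye and region were well above background, and median net signals (spot minus local background) were 39.2 to 55.9 intensity units. Negative control spots had median net signals of 9.9 to 10.3 units in Cy5 and 25.8 to 27.1 in Cy3. Of the 16 member probes 11 passed the filter, which asked for a signal well above background from the same region on array 1 and on array 2, and they covered 8 genes. All 11 stood well above background in all 4 readings, and none was saturated. Ratios are log2 values of the arch over the thoracic aorta, and the ± gives how far each array lies from their mean. With 1 pool per region this error is technical only, there is no replicate check of the regions, and no test was made. A probe was called if each array by itself showed a difference of 1.5-fold or more (0.585 on the log2 scale) and both ran the same way. Normalised signals include the 50 units added in background correction, and levels are set side by side within a probe, not between probes.

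Fhl2 was the only gene of the group with a called probe, A_51_P140237. By the mean ratio of that probe alone, the normalised signal in the arch pool was 40.0% of that in the thoracic pool. This signal includes the units added in background correction, which shrink ratios. As a fold of arch over thoracic aorta the value was 0.400, against 0.343 without those units and 0.336 with the scanner software's ratios. The other Fhl2 probe that passed was not called. Of the 11 probes that passed, 1 was called lower in the arch and 0 higher. Over all 30520 probes that passed, 0.393% were called, 0.21% higher (64 probes) and 0.183% lower (56 probes). With median centring in place of loess the split over all probes was 35 higher and 85 lower. Fhl2 was put into this group with its ratio known, so nothing is read from that count. The other 10 probes lay from −0.10 to 0.23, with a median of 0.01, against −0.00 over all probes. In pooled tissue RNA, fewer cells that carry a transcript and less transcript per cell cannot be told apart.

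**Figure D1:**
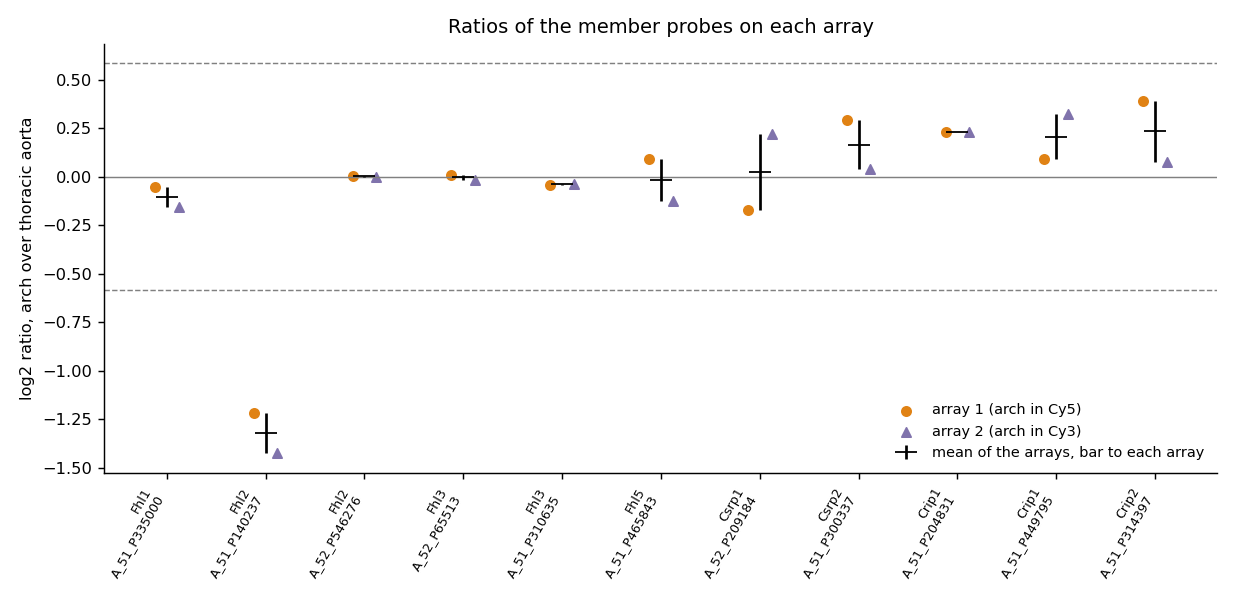
Log2 ratio of arch over thoracic aorta (vertical axis) for the 11 member probes that passed the filter, with array 1 as circles, array 2 as triangles, the mean as a bar and a line reaching each array. Dashed lines mark 1.5-fold, and Fhl2 probe A_51_P140237 alone lies beyond them, at −1.22 on array 1 and −1.43 on array 2.

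The FHL family had 10 probes for 5 genes, of which 6 probes for 4 genes passed. Fhl2, the scaffold that partners SRF, was read by probe A_51_P140237 (target NM_010212) at normalised signals of 251 and 218 units in the arch on arrays 1 and 2, against 583 and 587 units in the thoracic aorta. Both arch values lay below both thoracic values. The ratios were −1.22 on array 1 and −1.43 on array 2, with a mean of −1.32 ± 0.11. Within a dye, where no normalisation between dyes enters, the net signal in Cy5 was 192 units for the arch on array 1, against 617 units for the thoracic aorta on array 2. In Cy3 it was 177 units for the arch on array 2, against 529 units for the thoracic aorta on array 1. The difference was thus of the same direction and of like size in either dye. These net signals were not normalised between the arrays, so a difference in brightness between arrays remains in them. Median net signals on arrays 1 and 2 were 39.2 and 43.4 units in Cy5, and 55.9 and 54.4 units in Cy3. Among all probes that passed, the mean ratio of this Fhl2 probe was the 13th lowest.

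The other Fhl2 probes target a different transcript record, AK081770, and did not show the difference, but both were dim. Probe A_52_P546276 had normalised signals of 79.5 and 72.8 units in the arch on arrays 1 and 2, against 79.1 and 72.8 units in the thoracic aorta, a mean ratio of 0.00 ± 0.00. The regions overlapped fully. This probe was among the 7630 dimmest that passed, of which 0 were called, so a difference there could go unseen. Its net signal in Cy5 was 31.5 units in the arch and 27.4 units in the thoracic aorta, and in Cy3 40.9 units in the arch and 47.9 units in the thoracic aorta, so the dyes ran in opposite directions. Probe A_52_P129665 was not well above background in either region on either array, with net signals of 9.8 and 25.2 units in the arch and 26.2 and 9.1 units in the thoracic aorta. These lie at the medians of the negative controls, so no fold is given for it. Where the AK081770 record lies relative to the coding transcripts of Fhl2 was not analysed here. As the mean of its kept probes Fhl2 measured −0.66 ± 0.05 and was still called.

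A called probe beside an uncalled one was common among called genes, but seldom with so wide a distance. The disagreement of the Fhl2 probes was known when the family was chosen, and its uncalled kept probe was among the 7630 dimmest. The distance within Fhl2 is therefore a description, and nothing is read from its rank. Of 6635 genes with 2 or more kept probes, the median distance between the highest and the lowest probe was 0.07 on the log2 scale, against 1.32 for Fhl2. The one other gene with a distance as wide was Ren1 (0.15 and 1.68), which was named after its values were seen. Of 44 such genes with a called probe, 37 (84.1%) had a further kept probe that was not called. Calls depend on brightness, with 0 among the 7630 dimmest probes and 81 among the 7630 brightest. This count alone therefore does not show that probes disagree. Within Fhl3 and Crip1, the other members with a pair of kept probes, the distance was 0.04 and 0.02.

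**Figure D2:**
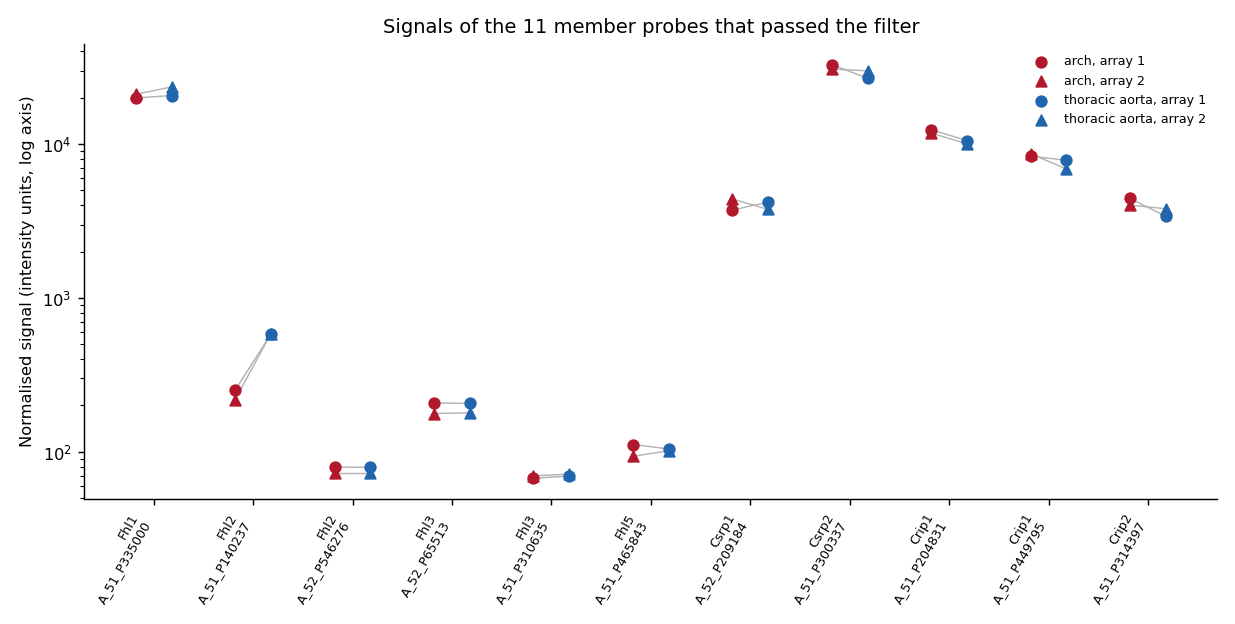
Normalised signal in intensity units on a log axis, 50 units of offset included, for the member probes that passed, arch (red) left of thoracic aorta (blue), array 1 as circles and array 2 as triangles, with lines joining the regions of an array. Only Fhl2 probe A_51_P140237 shows a wide step, 251 and 218 units in the arch against 583 and 587 units in the thoracic aorta, and heights are not comparable between probes.

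Fhl1, a skeletal and heart muscle scaffold whose human counterpart is mutated in inherited myopathies, was nearly level. Its probe gave 19951 and 21095 units in the arch, against 20690 and 23514 units in the thoracic aorta, a ratio of −0.10 ± 0.05. The arch was below the thoracic aorta on each array, by −0.05 and −0.16, but the ranges overlapped. With median centring the Fhl1 ratio was 0.01 on array 1 and −0.57 on array 2, so the arrays disagreed in sign. Fhl3, a member first described in skeletal muscle, had no called probe. A_52_P65513 gave 208 and 177 units in the arch, against 206 and 179 units in the thoracic aorta (−0.00 ± 0.01), and A_51_P310635 gave 67.3 and 69.7 units in the arch, against 69.3 and 71.4 units in the thoracic aorta (−0.04 ± 0.00). The dimmer Fhl3 probe, A_51_P310635, had net signals of 19.5 and 38.0 units in the arch, against 38.2 and 25.7 units in the thoracic aorta. It was slightly below 0 on each array. The ratio was −0.14 ± 0.01 with an offset of 0 and −0.26 ± 0.12 with the scanner software's ratios. With median centring it was −0.00 ± 0.02, and the arrays disagreed in sign.

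Fhl4 and Fhl5 are known mainly from testis, where Fhl5 activates the transcription factor CREM. Fhl5 probe A_51_P465843 gave 111 and 93.3 units in the arch, against 104 and 102 units in the thoracic aorta. Its ratio was 0.09 on array 1 and −0.12 on array 2, so the arrays differed in sign and no direction is given. Fhl5 probe A_52_P158321 was well above background on array 2 alone, in both regions, and its net signals were 19.3 and 33.8 units in the arch, against 33.5 and 19.7 units in the thoracic aorta. The Fhl4 probes were not well above background in any region or array, with net signals from 12.8 to 30.2 units in the arch and from 15.2 to 30.8 units in the thoracic aorta. Fhl4 therefore has no ratio here, and its transcript was not detectable at this signal.

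The CSRP genes were expressed in both regions apart from Csrp3, and none was called. Csrp1, the actin cross-linker of smooth muscle, gave 3729 and 4390 units in the arch, against 4193 and 3763 units in the thoracic aorta. The arrays disagreed in sign (−0.17 on array 1 and 0.22 on array 2), so its mean of 0.03 ± 0.20 carries no direction. Csrp2, also called SmLIM for its place in arterial smooth muscle, gave 32844 and 30754 units in the arch, against 26800 and 29932 units in the thoracic aorta. Its ratio was 0.29 on array 1 and 0.04 on array 2, a mean of 0.17 ± 0.13. The arch values were the higher on each array and did not overlap the thoracic ones, but with median centring the mean was −0.01 ± 0.38. Csrp3 was well above background in 1 of 4 readings, the arch on array 2. Its net signals were 16.4 and 32.9 units in the arch, against 28.3 and 13.3 units in the thoracic aorta, near the negative controls, and no fold is given.

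The CRIP genes were slightly higher in the arch on each array at each of 3 probes, all below 1.5-fold. Crip1 probe A_51_P204831 gave 12376 and 11772 units in the arch, against 10544 and 10043 units in the thoracic aorta, a ratio of 0.23 ± 0.00. Its probe A_51_P449795 gave 8349 and 8642 units in the arch, against 7846 and 6897 units in the thoracic aorta, a ratio of 0.21 ± 0.12. At neither probe did the regions overlap. Crip2 gave 4435 and 4010 units in the arch, against 3385 and 3798 units in the thoracic aorta, a ratio of 0.23 ± 0.16 with 0.39 on array 1 and 0.08 on array 2. These ratios stood at percentiles 97.5, 96.9 and 97.7 of all probes that passed. All 3 probes were among the 7630 brightest, of which 1.06% were called, against 0.393% of all probes. The percentiles thus mix probes of unlike brightness. The CRIP ratios were smaller with median centring, at 0.06, 0.04 and 0.06, where array 2 alone gave −0.14, −0.02 and −0.23. Crip1 and Crip2 lie on chromosome 12 with 1 predicted protein-coding gene between them in RefSeq's gene order, Gm30599, which had no kept probe. The measured genes just beyond the pair were Mta1 (0.03 ± 0.02) and Tmem121 (−0.04 ± 0.00).

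How far the arrays of a pair lie apart depends on brightness. When the probes that passed were ordered by intensity into 4 bins of 7630, the brightest bin held Fhl1, the called Fhl2 probe, Csrp1, Csrp2 and all CRIP probes. The distance of an array from the mean had an SD there of 0.085 (log2 scale), against 0.051 in the dimmest bin, where the 50 units of offset shrink both ratios and differences. Of the probes in the brightest bin 1.06% were called, against 0% in the dimmest bin. Fhl2 probe A_52_P546276 and Fhl3 probe A_51_P310635 are in the dimmest bin.

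**Figure D3:**
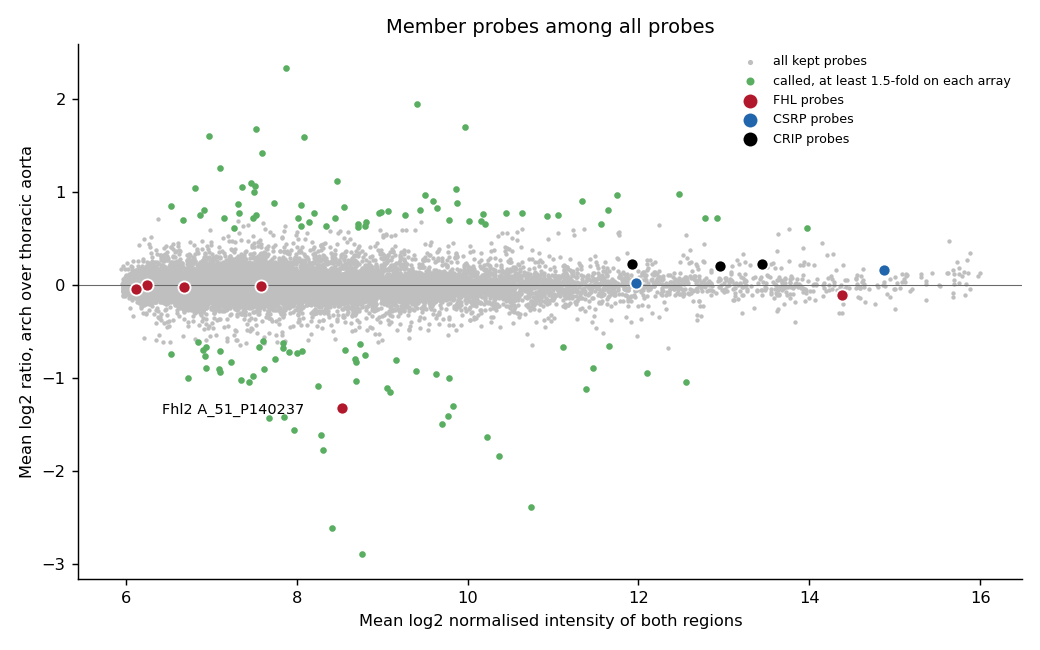
Mean log2 ratio of arch over thoracic aorta (vertical axis) against mean log2 normalised intensity (horizontal axis) for the 30520 probes that passed, called probes in green, FHL probes in red, CSRP in blue and CRIP in black. Fhl2 probe A_51_P140237 lies at −1.32 among the called probes, and the other 10 member probes lie from −0.10 to 0.23.

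With a single comparison, likeness to Fhl2 can be measured only by the ratios on the 2 arrays. The 3 named genes nearest to its called probe were Mup4, a major urinary protein whose family members the probes may not tell apart (−1.40 ± 0.08, distance 0.12), Pax1, a paired-box transcription factor (−1.43 ± 0.18, distance 0.18), and Gpsm2, which acts in G protein signalling (−1.30 ± 0.03, distance 0.19). On arrays 1 and 2, Pax1 had 131 and 119 units in the arch, against 311 and 362 units in the thoracic aorta. The genes next to Fhl2 on chromosome 1 were nearer to level, with AI597479 at −0.03 ± 0.01 and Nck2 at −0.11 ± 0.02. The genes just beyond these were Tgfbrap1 (−0.04 ± 0.02) and Ecrg4 (−0.26 ± 0.11).

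Other LIM genes were set beside the members. Here a gene takes its brightest kept probe, and over all 21366 genes 0.487% were called, 55 higher (0.257%) and 49 lower (0.229%), with a median of 0.00. Of 32 other LIM-only or actin-linked LIM proteins all were measured and 0 were called, 10 lying above 0 and 22 below, with a median of −0.01. The farthest from 0 were Pdlim1, which binds alpha-actinin (−0.33 ± 0.10), Lpp, a focal adhesion protein of smooth muscle (−0.30 ± 0.20), and Lima1, which stabilises actin filaments (−0.26 ± 0.06). Of 12 measured nuclear LIM-only and LIM-homeobox factors 1 was called. It was Lmo4, a LIM-only transcriptional cofactor, higher in the arch at 0.76 ± 0.05 and 0.17 at its lowest probe. It was not called with median centring or as the mean of its probes. The list's median was 0.05, with Lmo1 at 0.21 ± 0.06 and Lmo2 at 0.16 ± 0.08.

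Neither the SRF and myocardin regulators nor the titin, Z-disc and costamere partners held a called gene. Of 19 measured SRF and myocardin regulators 0 were called and 10 lay above 0, with a median of 0.00. Mef2c, a muscle transcription factor, measured −0.45 ± 0.01, Klf5, a Krüppel-like factor of activated smooth muscle, −0.44 ± 0.03 and Tead1, which binds the MCAT motif, 0.21 ± 0.04. Klf5 was called lower in the arch at −0.99 with an offset of 0 and at −1.22 with the scanner software's ratios. Of 21 measured titin, Z-disc and costamere partners 0 were called and 15 lay below 0, with a median of −0.11. That median was −0.19 with median centring and 0.00 on array 2 alone. Tcap, the titin cap that binds Csrp3, measured 0.26 ± 0.00, Sspn −0.25 ± 0.12 and Flnc, muscle filamin, 0.21 ± 0.06 with another probe at −0.04.

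Markers of the cell types that carry these proteins were measured in the same pools. All 8 smooth muscle markers were well above background in both regions, and 0 were called, with a median of −0.04, Des at −0.22 ± 0.01, Myh11 at −0.22 ± 0.03 and Cnn1 at −0.10 ± 0.12. Cardiomyocyte markers included 3 called higher among 9 measured, Myl7 (2.33 ± 0.01), Tnnt2 (1.59 ± 0.03) and Sln (0.87 ± 0.04), and the median was 0.10. The other 6 were not called, 4 of them above 0 (0.03 to 0.28) and 2 below it, Actc1 (−0.05 ± 0.11) and Myl2 (−0.05 ± 0.04). The part of heart muscle RNA in the members' values was not tested. Skeletal muscle markers had 0 of 9 called and a median of 0.00, with Myh4 at 0.07 ± 0.02, Acta1 at −0.06 ± 0.12 and Actn3 at 0.05 ± 0.03.

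Of the other cell types, 6 of 6 mesothelial markers lay above 0 with 0 called and a median of 0.42, led by Upk3b (0.65 ± 0.12), Msln (0.54 ± 0.05) and Krt19 (0.43 ± 0.15). Upk3b was called higher at 0.91 with an offset of 0, and Upk3b (0.96), Krt19 (0.88) and Wt1 (0.70) were called higher with the scanner software's ratios. All 6 adipocyte markers lay above 0 with a median of 0.53, and Cidea (0.81 ± 0.03), Plin1 (0.68 ± 0.00) and Adipoq (0.66 ± 0.06) were higher in the arch, though none of the 3 was called with median centring. Both lists ran in the direction of the CRIP probes, and their part in the CRIP values was not tested. Macrophage markers lay below 0 in 7 of 7 with 0 called and a median of −0.16, the farthest being Tyrobp (−0.35 ± 0.03), Lyz2 (−0.29 ± 0.13) and Adgre1 (−0.26 ± 0.07), the direction of the called Fhl2 probe, and their part in it was not tested. Endothelial markers had 0 of 6 called, with a median of 0.08 and Vwf at 0.26 ± 0.02, Emcn at 0.25 ± 0.02 and Kdr at 0.18 ± 0.05, and 5 of the 6 were well above background in both regions despite the perfusion. Fibroblast markers had 0 of 5 called, with a median of 0.04, Lum at 0.55 ± 0.06, Pdgfra at 0.55 ± 0.15 (0.01 at another probe) and Col1a1 at −0.30 ± 0.01.

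**Figure D4:**
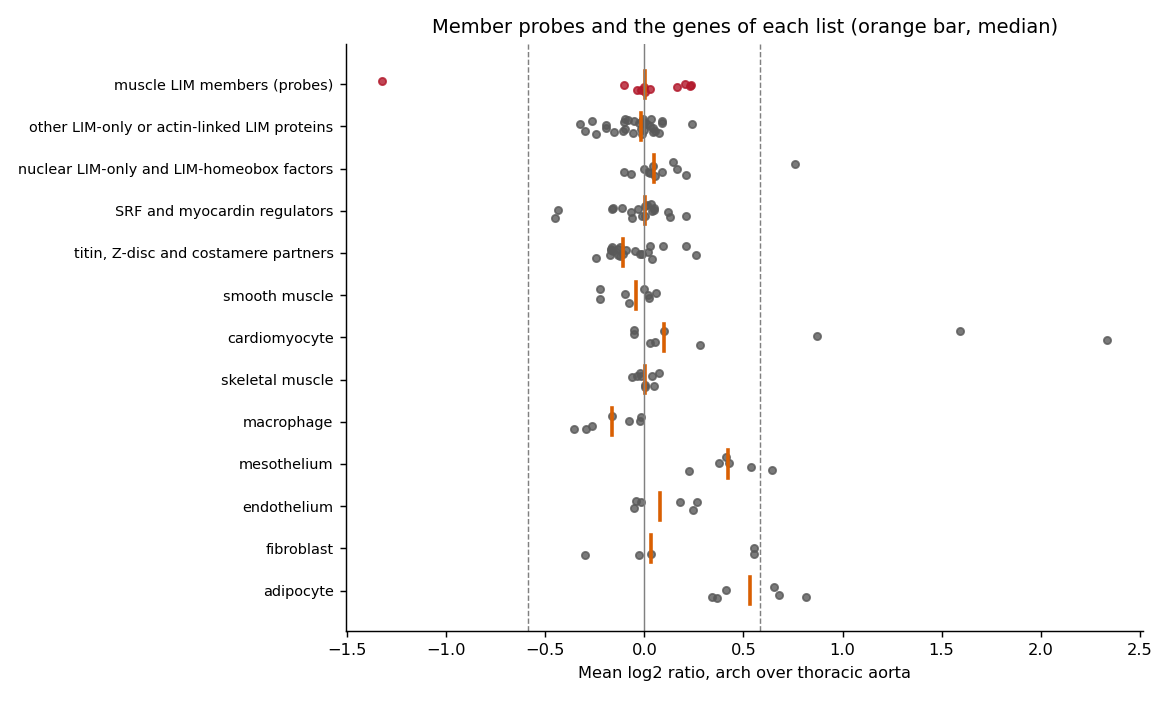
Mean log2 ratio of arch over thoracic aorta (horizontal axis) for the 11 member probes (red) and for the measured genes of each list (grey), with the median of each as an orange bar and dashed lines at 1.5-fold. Fhl2 probe A_51_P140237 at −1.32 is the only point left of the lower line, while Myl7, Tnnt2, Sln, Lmo4, 3 adipocyte markers and the uncalled Upk3b lie right of the upper one.

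The call of the Fhl2 probe held with every way of processing that was tried, all on the same 2 arrays. Single arrays, the 1.3-fold rule and the other filters could not have lost it. The ratio of the probe was −1.54 ± 0.13 with no offset, −1.58 ± 0.12 with the scanner software's ratios and −1.47 ± 0.14 with median centring. The probe also met a 2-fold rule on each array. The sign of the mean changed under at least 1 alternative or on 1 array for Csrp1, Csrp2, Fhl5, the dimmer Fhl2 probe and the brighter Fhl3 probe. It did not change for Fhl1, the called Fhl2 probe, the dimmer Fhl3 probe and the 3 CRIP probes. With median centring, though, the arrays lay on either side of 0 for Fhl1, the dimmer Fhl3 probe and the 3 CRIP probes. The mean of that Fhl3 probe was then −0.00. Median centring lowered the ratios of the brightest bin by a median of −0.155 on the log2 scale relative to loess, so small positive ratios of bright probes rest on the loess curve.

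**Figure D5:**
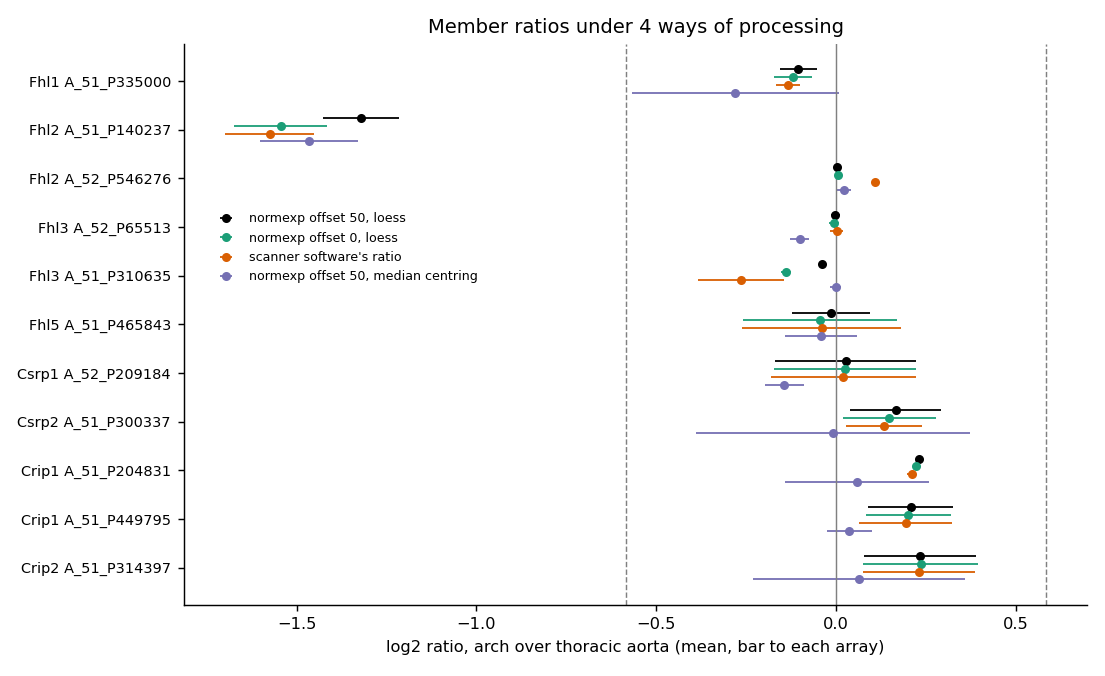
Log2 ratio of arch over thoracic aorta (horizontal axis; mean, with a line reaching each array) for each member probe that passed, under 4 ways of processing in separate colours. Fhl2 probe A_51_P140237 lies left of the 1.5-fold line throughout, from −1.58 to −1.32, and the other probes stay between the dashed lines.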

How the data were processed

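Total RNA of the 2 pools (integrity numbers 7.5 to 7.7) was amplified and labelled, 1 µg per dye, per the labels' protocols. The arrays were quantified with version 9.1.1.1 of Agilent Feature Extraction (submitters' processing notes). Per the file headers, the deposited scanner files record for every spot and dye an intensity and its local background. A log10 ratio of Cy5 over Cy3 was deposited by the authors in the same files and is set to 0 at some spots near background. The deposited series table held that same log10 value, expressed as arch over thoracic aorta, for 99.9% of features per array (tolerance 1e-06, medians 0). Its scale and direction were found from this match.

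From the intensities, background was corrected by normexp (offset 50) and a loess curve was fitted to the ratios of each array, using limma (version 3.58.1, R 4.3.3) with control spots at weight 0. Control spots and outlier spots (20 and 4) were left out, saturated spots stayed in, array 2 was turned round in sign and repeated spots were averaged. Normalised signals are per region after Aquantile normalisation between the arrays. As a technical dye swap of one pair of pools, the 2 arrays form 1 replicate, and nothing was tested. Symbols of listed genes came from RefSeq's table (GRCm38.p6), by accession and then by name or synonym. The array files name no genome build.

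The members, the 12 gene lists and the rules were chosen with earlier results of these data known. Every member probe is reported, of each list the called genes or otherwise the 3 farthest from 0, and for a called member probe the 3 nearest genes. Other offsets, ratios, centrings, folds and filters, each array alone and the mean over probes were tried.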

Additional observations from a re-analysis of the deposited data

How the results depend on the processing

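Called probes numbered 64 higher and 56 lower in the arch. The counts were 146 and 126 with an offset of 0, 200 and 160 with the scanner software's ratios, 200 and 160 with the deposited series values. They were 35 and 85 with median centring, 11 and 17 with a 2-fold rule, 161 and 129 with a 1.3-fold rule, and 83 to 101 higher and 75 to 77 lower on single arrays. The called Fhl2 probe (−1.32) was −1.54 with an offset of 0, −1.58 with the scanner software's ratios and with the deposited series values, −1.47 with median centring and −1.43 to −1.22 on single arrays. It was the called member probe, 1 lower and 0 higher, under all 10 alternatives for probe calls. Single arrays, the 1.3-fold rule and the other filters could not have lost this call, given the main call and readings all well above background. The deposited series values repeat the scanner software's ratios. Of the listed genes 7 were called, 11 with the scanner software's ratios and with the deposited series values, 3 with median centring, 2 with the 2-fold rule, 14 with the 1.3-fold rule and 8 to 10 on single arrays. List medians changed sign under at least 1 alternative for the SRF and myocardin regulators (−0.09 to 0.02), the titin and Z-disc partners (−0.19 to 0.00), skeletal muscle (−0.01 to 0.02) and fibroblasts (−0.13 to 0.10), and for no other list. The stricter and looser folds move counts by construction, and single arrays can only add calls because they drop the demand on the other array. For the other settings the cause was not tested. Limits are the single pool per region, and net signals near the negative controls for Csrp3, Fhl4, 1 probe of Fhl5 and 1 of 3 probes of Fhl2. A further Fhl2 probe and the dimmer Fhl3 probe passed the filter but were in the dimmest bin.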
